A study of Homo sapiens with 6 samples.

Results

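The 9 genes described here encode enzymes of, or close to, pathways that supply or spend NADPH, though not every enzyme does so itself. These are PGLS, PGD, RPIA, RPE, TKT and TALDO1 of the pentose phosphate pathway, the malic enzymes ME1 and ME2, and the quinone reductase NQO1. They were chosen by symbol, and all 9 were found among the 21857 genes of the tables and passed the filter on low counts. They were measured by bulk RNA sequencing in MV4;11, a human acute myeloid leukemia cell line whose labelled genotype is FLT3-ITD MLL-AF4, which control and treated cells share. 3 control libraries were compared with 3 libraries of cells given 10 µg/ml FKA (flavokawain A, a chalcone of the kava plant) for 48 h. The labels put 1 control and 1 FKA library in each of 3 batches. They do not say that replicates were separate cultures, so p-values measure the spread between these libraries, which may be technical.

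As background, the pentose phosphate pathway branches from glycolysis in the cytosol. Its oxidative branch burns glucose 6-phosphate to a pentose phosphate and yields NADPH, the electron donor for glutathione and thioredoxin recycling and for lipid and deoxynucleotide synthesis. Its non-oxidative branch shuffles sugars between pentoses, which feed nucleotide synthesis, and glycolytic intermediates. Malic enzymes turn malate into pyruvate: ME1 makes NADPH in the cytosol, and ME2 works in mitochondria, mostly with NAD. NQO1 reduces quinones and spends NADPH or NADH. NQO1, ME1, PGD, TKT and TALDO1 are textbook targets of the transcription factor NRF2, which binds antioxidant response elements.

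With FKA, ME1 and NQO1 transcripts rose over 20-fold (fitted 24.0- and 20.2-fold), PGD and TKT rose 2.74- and 2.60-fold, and TALDO1 rose 1.30-fold. ME2 fell 2.46-fold and PGLS 1.44-fold. RPIA and RPE did not pass the test. So 5 of the 9 genes rose (29.3% of all 13531 tested genes did) and 2 fell (30.5% did). The 7 called genes stand beside 59.8% of all tested genes called in either direction. The groups did not overlap in these 7 genes, as in 67.3% of all tested genes. Called and changed at least 2-fold were 5 of the 9, as were 25.5% of all tested genes. The median log2 fold change was 0.37 over the 9 genes and 0.01 over all tested genes. Calls are edgeR quasi-likelihood tests with a Benjamini-Hochberg adjusted p below 0.05 over all tested genes. Levels in CPM are counts scaled to library size with TMM factors, and means are given ± SD over 3 libraries.

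The promoter windows that hold the core of an antioxidant response element are shown, since NRF2 targets are among the genes that rose. The core searched was TGACNNNGC on both strands, from 250 bases before to 50 after each gene's start, in sequences of RefSeq (build GRCh38.p14). All 9 genes matched 1 promoter each by symbol. PGD, RPE and ME1 hold the core before their start, with the first base of the match 201, 151 and 137 bases before it. ME1 also holds a match after its start. Of all 35116 promoters, 13.3% hold the core. The ME1 match before the start has the form TGACTCAGC, which also resembles the site of AP-1 transcription factors. The search for that form was added after seeing the data, and 0.561% of promoters hold it. 5 more motifs were searched at that time, also on both strands. TGANNNNGC, which includes every core match, is in 5 of the 9 windows (PGLS, PGD, RPE, ME1 and NQO1) and in 41.8% of all promoters. GCGTG, the core bound by AHR, is in 5 windows (PGD, RPIA, ME1, ME2 and NQO1) and in 36.5% of promoters. GGGCGG is in all 9 windows (45% of promoters), CCAAT in 6 (34.6%) and CACGTG in none of the 9 (7.26%). Capitals mark the match, each window reads 5′ to 3′ on the strand of its gene, and the PGD match lies on the opposite strand.
ME1 (chr6:83431154-83431214, minus strand): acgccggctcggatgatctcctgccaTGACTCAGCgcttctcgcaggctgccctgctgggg
PGD (chr1:10398837-10398897, plus strand): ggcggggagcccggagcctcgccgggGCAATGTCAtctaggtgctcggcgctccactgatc
RPE (chr2:210002461-210002521, plus strand): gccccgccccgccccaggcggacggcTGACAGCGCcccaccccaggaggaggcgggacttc
The windows of NQO1, TKT, TALDO1, PGLS, RPIA and ME2 do not hold the core, which says nothing of sites outside them. Of the 3 genes with a core match, ME1 and PGD rose and RPE did not pass the test. A match is a run of letters, not a measured binding site.

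The libraries held 29971171 to 36362421 counts. Markers of blood and myeloid cells were present in every library, with PTPRC, the pan-leukocyte CD45 gene, the most abundant (557 CPM in controls, 683 CPM with FKA). Of the 9 markers of this list 2 rose, 2 fell and 5 were not called. MPO, a granule enzyme, fell to 10 to 73 counts in the FKA libraries (44.5 to 1.06 CPM, log2 fold change -5.36, edgeR adjusted p = 6.94e-05). ITGAM, the integrin CD11b of mature myeloid cells, rose (16.2 to 46.3 CPM, 1.51, edgeR adjusted p = 0.000415). The others called, the homeobox genes MEIS1 (0.58, edgeR adjusted p = 0.0434) and HOXA9 (-0.52, 0.0437), were, like ITGAM, named after their values were seen. Mesenchymal markers, all 8 listed genes summed, stood at 0.744 to 11.0 CPM in controls and at 1.12, 54.5 and 50.9 CPM in FKA replicates 1, 2 and 3. FN1 was the most abundant of them, with 170, 168 and 18 counts in controls and 19, 799 and 791 with FKA. COL1A1, COL1A2, COL3A1, COL6A1, SPARC, DCN and LUM were also highest in FKA replicates 2 and 3, and COL1A2, COL3A1, COL6A1 and DCN were at 0 in FKA replicate 1. In bulk RNA, fewer cells of a type and less RNA per cell cannot be told apart. Epithelial markers summed to 12.9 to 21.8 CPM, led by KRT18, with EPCAM between 1 and 28 counts and CDH1 between 1 and 11. KRT19 had at most 7 counts. Lymphoid markers summed to at most 0.565 CPM, led by CD79A, and no erythroid marker was analysed here.

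**Figure D1:**
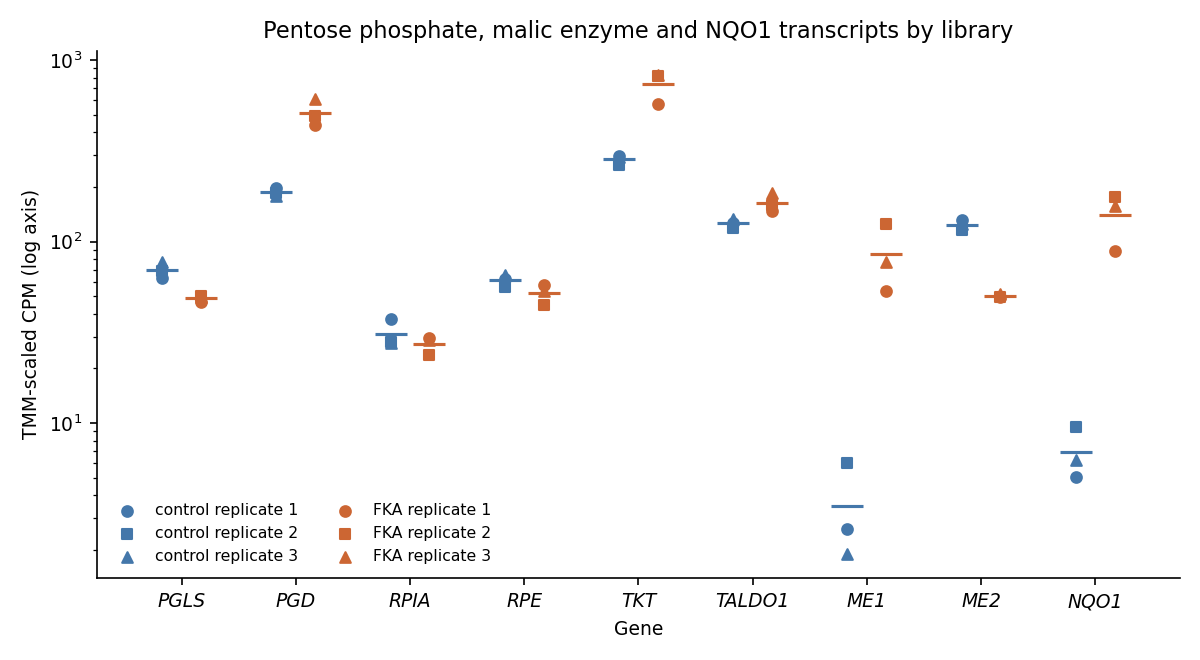
TMM-scaled CPM (log axis) of the 9 genes in each of the 6 libraries, with marker shapes for replicates and horizontal lines for group means. ME1 and NQO1 lie between 1.90 and 9.53 CPM in controls and between 53.7 and 177 CPM with FKA, and only RPIA and RPE overlap between groups.

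In the oxidative branch the pair of genes moved in opposite directions. PGLS encodes 6-phosphogluconolactonase, which opens the lactone made at the start of the branch. Its level was 63.3, 69.3 and 76.9 CPM in control replicates 1 to 3 and 46.6, 49.9 and 49.4 CPM with FKA. All FKA libraries lay below all controls, and PGLS fell (means 69.8 ± 6.82 and 48.6 ± 1.77 CPM) with a log2 fold change of -0.52 (SE 0.0975, adjusted p = 0.00165, edgeR). PGD encodes 6-phosphogluconate dehydrogenase, which makes NADPH and releases the pentose phosphate. PGD stood at 198, 185 and 178 CPM in controls and at 437, 491 and 610 CPM with FKA. Every FKA library was more than 2-fold above every control, and PGD rose by 1.45 (SE 0.131) on the log2 scale, from a mean of 187 ± 9.87 to 512 ± 89.0 CPM (adjusted p = 3.46e-05, edgeR).

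Both enzymes can be compared per length, in FPKM. FPKM is scaled by library totals without TMM factors, so its differences between groups are not those of CPM. In controls PGD and PGLS had similar levels, 71.5 ± 3.74 and 65.5 ± 6.96 FPKM, and their ranges overlapped. With FKA they stood apart at 219 ± 36.8 and 51.0 ± 2.07 FPKM. The ratio of PGD to PGLS was 1.27, 1.09 and 0.944 in controls and 3.82, 4.01 and 5.03 in FKA replicates 1 to 3. PGLS-DT, a long non-coding RNA that overlaps PGLS in RefSeq, had 134 to 177 counts per library and did not pass the test (-0.10, edgeR adjusted p = 0.671). Since no use of strand is stated, reads of overlapping genes cannot be told apart.

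In the non-oxidative branch the sugar-transferring enzymes rose and the pentose-converting enzymes did not pass the test. TKT encodes transketolase, which moves 2-carbon units between sugars with thiamine as cofactor. TKT stood at 295, 264 and 293 CPM in controls and at 570, 813 and 831 CPM with FKA. FKA replicate 1 was the lowest of the treated libraries and still lay above every control. Means were 284 ± 17.3 and 738 ± 146 CPM, a rise of 1.38 on the log2 scale (SE 0.149, adjusted p = 8.75e-05, edgeR).

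TALDO1 encodes transaldolase, which moves 3-carbon units and works in series with TKT. Its level was 126, 119 and 134 CPM in controls and 148, 159 and 185 CPM with FKA. The groups were close but did not overlap, and TALDO1 rose slightly (0.37, SE 0.104, edgeR adjusted p = 0.0123). Without FKA replicates 2 and 3 together, the libraries with the mesenchymal reads, its value was 0.22 (edgeR adjusted p = 0.285). That fit sets 1 FKA library against 3 controls, takes its spread from the controls alone and called fewer genes overall (2020 higher and 2599 lower), so values from it are given below without a call. The part of the mesenchymal reads in the TALDO1 rise was not tested. Per length, TALDO1 was the higher of the pair in controls (99.8 ± 3.82 against 85.3 ± 2.33 FPKM) and TKT was the higher with FKA (247 ± 49.1 against 144 ± 16.2 FPKM). The ratio of TKT to TALDO1 ran from 0.835 to 0.889 in controls and from 1.47 to 1.95 with FKA.

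RPIA encodes the isomerase that makes ribose 5-phosphate, the sugar of nucleotides. It stood at 37.7, 28.0 and 27.6 CPM in controls and at 29.4, 23.7 and 28.9 CPM with FKA, and the groups overlapped. Its log2 fold change was -0.19 (SE 0.151, edgeR adjusted p = 0.306), with a difference above 0 in batch 3 (0.06) and below 0 in batches 1 and 2 (-0.35 and -0.24). Without control replicate 1, the highest library, the value was -0.04. RPE encodes the epimerase that makes xylulose 5-phosphate, a substrate of TKT. It stood at 62.6, 56.1 and 65.2 CPM in controls and at 57.4, 45.0 and 53.1 CPM with FKA. FKA replicate 1 lay above control replicate 2, and RPE did not pass (-0.24, SE 0.113, edgeR adjusted p = 0.093). With the batch as a block it passed (-0.25, edgeR adjusted p = 0.0409), which makes 3 genes lower in place of 2. KANSL1L, which overlaps RPE in RefSeq, rose (0.86, edgeR adjusted p = 0.000282), so part of the RPE reads cannot be told apart from it. RPEL1, a near copy of RPE, had 4 to 14 counts. Copies of PGD, RPIA, RPE, TALDO1 and ME2 that RefSeq names as pseudogenes were not analysed here, and reads of a gene and its copies may be shared.

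**Figure D2:**
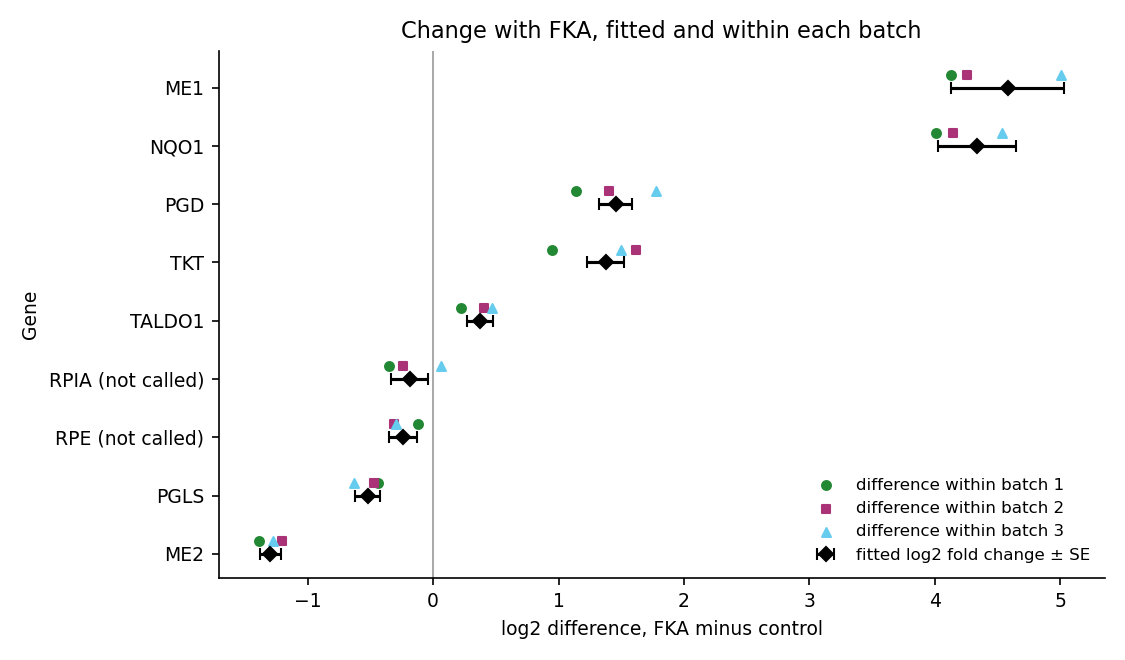
Log2 difference of FKA minus control for each gene, as the fitted edgeR value with its standard error (black diamonds) and as the difference between the libraries of each batch (coloured markers). ME1 and NQO1 lie at or above 4.01 in every batch, PGLS and ME2 lie below 0 in every batch, and RPIA lies on both sides of 0.

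The malic enzymes exchanged places. ME1 had 81, 216 and 64 counts in controls and 1730, 3981 and 2667 counts with FKA, which is 2.61, 6.04 and 1.90 against 53.7, 124 and 76.7 CPM. Control replicate 2 was the highest control and FKA replicate 2 the highest treated library, and the groups lay far apart. Means were 3.52 ± 2.21 and 85.0 ± 36.1 CPM, and the rise of 4.58 (SE 0.451, adjusted p = 5.47e-05, edgeR) was the 19th largest log2 fold change among all tested genes. Its value was 5.23 without control replicate 2 and 3.92 without FKA replicates 2 and 3 together.

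ME2 stood at 131, 115 and 124 CPM in controls and at 49.7, 49.7 and 51.1 CPM with FKA. The FKA libraries agreed within a CV (SD as a share of the mean) of 1.68% and lay far below the controls. ME2 thus fell, with a log2 fold change of -1.30 (SE 0.084, adjusted p = 7.78e-06, edgeR). Per length, ME1 rose from 1.00 ± 0.667 to 26.7 ± 11.6 FPKM while ME2 fell from 12.9 ± 0.393 to 5.87 ± 0.0673 FPKM. The share of ME1 in the summed FPKM of ME1 and ME2 was 5.07%, 12.3% and 3.95% in controls and 74.4%, 87.1% and 80.1% with FKA. The groups did not overlap, and the exact two-sided permutation test gave p = 0.1, the smallest that 3 against 3 libraries allow. The sum of both was 13.9 ± 0.483 FPKM in controls and 32.6 ± 11.6 FPKM with FKA.

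**Figure D3:**
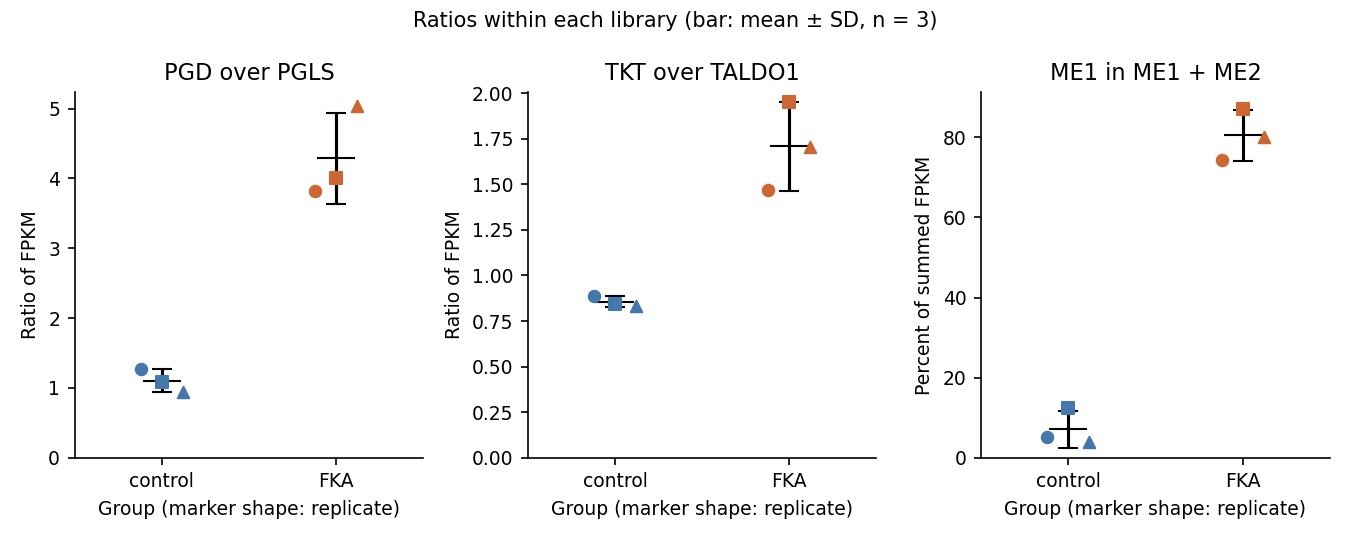
Ratio of PGD to PGLS and of TKT to TALDO1 in FPKM, and the percent of ME1 in the summed FPKM of ME1 and ME2, for each library (markers by replicate) with mean ± SD over 3 libraries. All FKA libraries lie above all controls in each panel, and ME1 goes from at most 12.3% to at least 74.4%.

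NQO1 had 157, 341 and 210 counts in controls and 2868, 5663 and 5430 with FKA, which is 5.05, 9.53 and 6.25 against 89.1, 177 and 156 CPM. As for ME1, control replicate 2 was the highest control and FKA replicate 1 the lowest treated library. Means were 6.94 ± 2.32 and 141 ± 46.0 CPM, and the rise of 4.34 (SE 0.311, adjusted p = 1.13e-05, edgeR) was the 28th largest log2 fold change of all tested genes. Without FKA replicates 2 and 3 together the value was 3.67. NQO1-AS1, a long non-coding RNA that RefSeq places over NQO1, was not analysed here.

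The 5 genes that rose were each lowest in FKA replicate 1 among the treated libraries, and mesenchymal markers were also lower there (1.12 CPM) than in FKA replicates 2 and 3. FKA replicate 1 and control replicate 3 were the libraries of their groups with the lowest mesenchymal sums (1.12 and 0.744 CPM). Between these, NQO1 stood at 89.1 against 6.25 CPM, ME1 at 53.7 against 1.90 CPM, PGD at 437 against 178 CPM and TKT at 570 against 293 CPM. These are differences between 1 library of each group, with no replicate, and the part of the mesenchymal reads in the results was not tested.

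Within batches 1, 2 and 3 the log2 difference of ME1 was 4.13, 4.26 and 5.01 and that of NQO1 4.01, 4.15 and 4.54. PGD gave 1.14, 1.40 and 1.78, and TKT gave 0.95 in batch 1 and more in batch 3 and, highest, batch 2 (1.62). TALDO1 gave 0.23, 0.41 and 0.47. ME2 gave -1.39, -1.21 and -1.27, and PGLS -0.44, -0.47 and -0.63. Batch 1 thus had the smallest rise in each of the 5 genes that rose. The spread between controls was largest in ME1 (CV 62.9%) and NQO1 (33.4%), the genes with the fewest control counts, and 18.3% or less in the other 7.

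Per length the order of the 9 genes changed. In controls it was TALDO1, TKT, PGD, PGLS, RPIA, ME2, RPE, NQO1 and ME1, from 99.8 to 1.00 FPKM on average, and the ranges of neighbours overlapped for PGD and PGLS and for ME2 and RPE. With FKA it was TKT, PGD, TALDO1, NQO1, PGLS, ME1, RPIA, RPE and ME2, from 247 to 5.87 FPKM, and neighbours overlapped for TKT and PGD, for NQO1 and PGLS, and for ME1 and RPIA. Among all tested genes NQO1 moved from the 35.7th to the 94.0th percentile of mean FPKM and ME1 from the 23.5th to the 85.1st. TKT and PGD were already at the 96.2nd and 95.3rd percentile in controls. ME2 moved from the 70.3rd to the 50.2nd. FPKM carries no TMM factors, and scaling by library totals moved the median over all genes up by 0.16 (log2) with FKA. The summed FPKM of the 9 genes was 362, 368 and 373 in controls and 646, 826 and 872 with FKA. The NQO1 share of that sum went from 0.714% ± 0.264 to 7.43% ± 1.65, while TALDO1 went from 27.1% ± 0.694 to 18.6% ± 1.52.

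**Figure D4:**
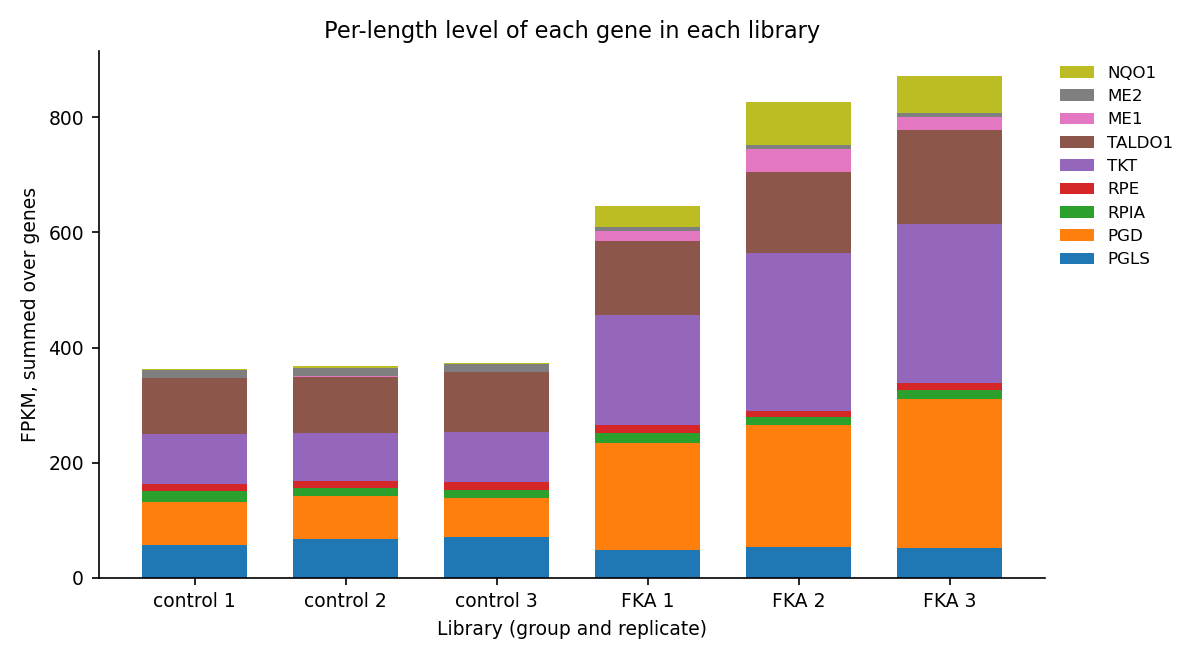
FPKM of the 9 genes stacked for each library. The sum is 362 to 373 in controls and 646 to 872 with FKA, and PGD and TKT make up most of the difference.

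The genes whose profile over the 6 libraries was most like that of ME1 and NQO1 were found by the root mean square difference of log2 CPM, each gene centred on its own mean. Among 13531 tested genes ME1 and NQO1 were each other's nearest, at 0.32 on the log2 scale. Next to NQO1 came MIR22HG, a long non-coding RNA (0.34), S100A4, a calcium-binding protein (0.36), SPACA6 (0.39) and SLC5A3, a myo-inositol transporter (0.43). Next to ME1 came S100A4 (0.46), SLC5A3 (0.54), ADAM28, a membrane metalloprotease (0.56), and MIR22HG (0.56). S100A4 went from 44.5 to 579 CPM (3.70) and SLC5A3 from 25.0 to 353 CPM (3.82), while ADAM28 (4.43, and 3.84 without FKA replicate 2), MIR22HG (4.20) and SPACA6 (4.68) started from under 2 CPM. SLC5A3 had 2.96 and SPACA6 4.01 without FKA replicates 2 and 3 together. PGD and TKT ranked 465th and 526th in nearness to ME1. Profiles were centred but not scaled to equal size, so these ranks largely restate the smaller rises of PGD and TKT. These values describe 6 libraries that share 1 difference between groups.

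Around these genes, 90 of 103 listed neighbours were tested, and 34 rose and 27 fell (67.8% called). Of 9 tested pentose neighbours 1 rose and 3 fell, and with the batch as a block or without control replicate 1 the number that fell was 5. H6PD, which makes NADPH in the endoplasmic reticulum, rose from 75.7 ± 11.3 to 124 ± 7.10 CPM (0.71). The synthetases that turn ribose 5-phosphate into the nucleotide precursor PRPP both fell, PRPS2 with a log2 fold change of -1.46 and PRPS1 with -0.72. TKTL1, a relative of transketolase, fell from a low level, with 18, 92 and 27 counts in controls and 2, 4 and 2 with FKA (-3.97, and -3.05 without control replicate 2). All 4 had edgeR adjusted p-values of 0.00242 or less.

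Of 10 tested genes of other NADPH sources 5 fell, 2 rose and 3 were not called, with a median log2 fold change of -0.44, beside 30.5% of all tested genes lower and 29.3% higher. The lowest values were those of folate enzymes, though not every folate enzyme fell. ALDH1L2, which makes NADPH in mitochondria, had 12872, 14947 and 13150 counts in controls and 4927, 1182 and 1414 with FKA (-2.41, edgeR adjusted p = 0.00253). Its value was -3.39 without FKA replicate 1 and -1.42 without FKA replicates 2 and 3 together. MTHFD1, a cytosolic enzyme of the folate cycle, had a log2 fold change of -1.95, and the mitochondrial MTHFD2 had -1.47. IDH2, the mitochondrial isocitrate dehydrogenase that makes NADPH, went from 109 ± 19.1 to 54.4 ± 3.61 CPM (edgeR adjusted p = 0.000247). IDH1, its cytosolic relative, was not called (0.14, edgeR adjusted p = 0.361). The genes that rose, named after their values were seen, were the folate enzyme MTHFD2L (0.73) and the mitochondrial NAD kinase NADK2 (0.46). Without control replicate 3, and without FKA replicate 3, 1 of them passed.

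Genes listed as NADPH users went both ways, with 7 higher and 5 lower of 20 tested (median 0.21). Scaled by library totals, 11 were higher. The list includes relatives and subunits that need not spend NADPH themselves. NCF1 and NCF4, subunits of the phagocyte oxidase, rose from 3.23 ± 1.57 to 25.7 ± 10.8 CPM (2.98) and from 31.7 ± 2.51 to 79.7 ± 11.3 CPM (1.33). NCF1 has near-identical copies, so its reads are uncertain. NQO2 is in the list as the closest relative of NQO1 and is not a clear user of NADPH. It also rose, from 6.80 to 15.4 CPM (1.17, edgeR adjusted p = 0.000396), and was named after its value was seen. The carbonyl reductase CBR3 fell, with a log2 fold change of -1.75.

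**Figure D5:**
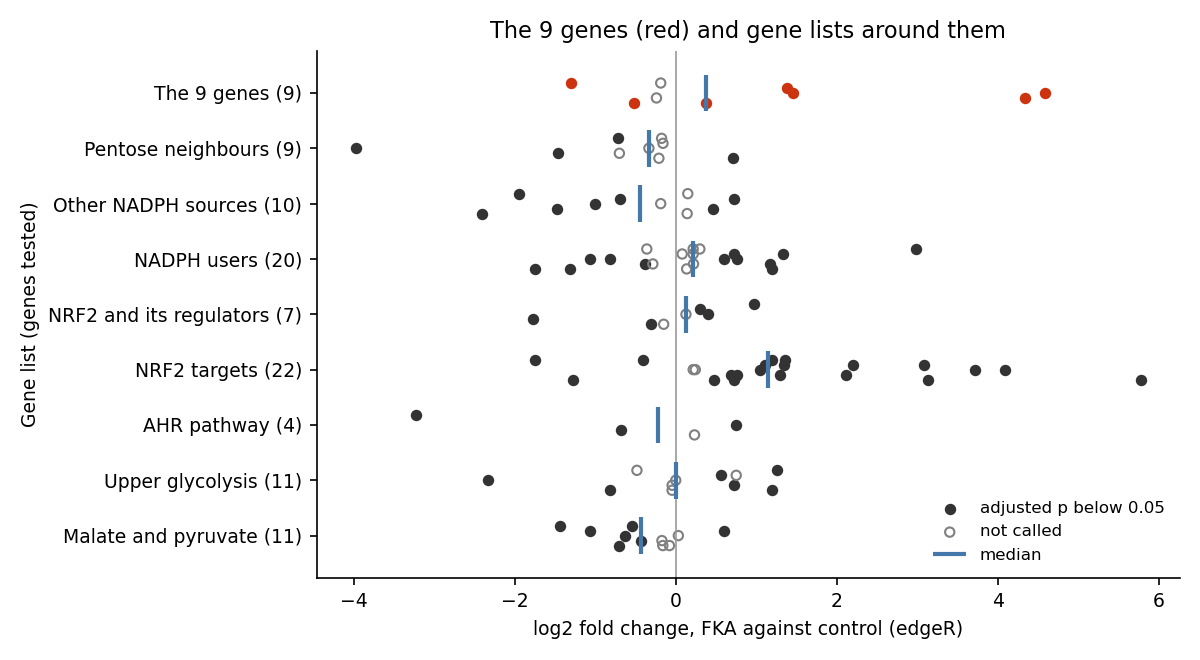
Fitted log2 fold changes of the 9 genes (red) and of the tested genes of 8 lists around them, filled where the adjusted p is below 0.05 and open where not, with the median of each list as a blue bar. The list of NRF2 targets has its median at 1.15, and the lists of other NADPH sources and of malate and pyruvate genes have theirs at -0.44 and -0.43.

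Of 22 tested NRF2 targets outside the 9 genes, 17 rose and 3 fell (median 1.15), beside 29.3% and 30.5% of all tested genes. The 3 that fell, identified after their values were seen, were CBR3 (-1.75), SLC7A11 (160 ± 14.2 to 66.3 ± 31.9 CPM, -1.27) and TXN (-0.40). With library totals 2 fell. Named by size were HMOX1, which breaks down heme (19, 32 and 9 counts against 191, 807 and 2319, log2 fold change 5.77, and 4.70 without FKA replicate 3), the nuclear protein PIR (2, 3 and 2 counts against 43, 45 and 34, 4.08), OSGIN1 (10, 3 and 2 counts against 43, 74 and 84, 3.71, and 4.73 without control replicate 1) and ferritin light chain FTL (914 ± 97.4 to 8042 ± 2453 CPM, 3.14). As in the 5 genes that rose, HMOX1, OSGIN1 and FTL were lowest in FKA replicate 1 among the treated libraries. HMOX1 had 3.30 and OSGIN1 3.10 without FKA replicates 2 and 3 together. FTL has many processed copies, so its reads may be shared.

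The mRNA of NRF2 itself did not rise. NFE2L2, which encodes it, went from 92.3 ± 6.52 to 74.3 ± 4.79 CPM (-0.31, edgeR adjusted p = 0.0159). That call was lost with library totals (edgeR adjusted p = 0.193), without control replicate 3 (0.06) and without FKA replicate 2 (0.0623). KEAP1, which marks NRF2 for degradation, rose from 76.6 ± 2.23 to 101 ± 0.877 CPM (0.40), and BACH1, a repressor at antioxidant response elements, from 53.0 ± 3.78 to 103 ± 3.04 CPM (0.96, edgeR adjusted p = 3.36e-05). Of the small MAF partners of NRF2, the scarce MAFF fell from 33, 51 and 45 to 19, 2 and 16 counts (-1.77, edgeR adjusted p = 0.0217). That call was lost without control replicate 2 (0.0579) and without control replicate 3 (0.0548). MAFF had -1.12 without FKA replicates 2 and 3 together. The other partners were named after their values were seen. MAFG, far more abundant, rose from 275 ± 7.43 to 338 ± 28.8 CPM (0.30, edgeR adjusted p = 0.0229). MAFK was not called (-0.15, edgeR adjusted p = 0.213). Of the 7 genes of this list 3 rose and 2 fell. Without control replicate 2, control replicate 3 or FKA replicate 3, 2 rose.

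NQO1 is also a textbook target of the aryl hydrocarbon receptor AHR. Of 4 tested genes of that pathway 1 rose and 2 fell, and 2 rose without control replicate 2. CYP1B1, an AHR target, went from 31.4 ± 6.04 to 3.34 ± 0.805 CPM (-3.23, edgeR adjusted p = 8.58e-06) and TIPARP, another, from 34.7 ± 2.17 to 21.6 ± 2.31 CPM (-0.68). ARNT, the partner of AHR, rose (0.74). AHR itself, named after its value was seen, was not called (0.23, edgeR adjusted p = 0.366).

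Upper glycolysis shares its sugars with the pentose phosphate pathway. In the list named after it, 4 of 11 tested genes rose and 2 fell. GAPDH and TIGAR, in the list but outside upper glycolysis, were not called. The hexokinase HK2, which makes glucose 6-phosphate, went from 98.4 ± 26.7 to 19.5 ± 7.47 CPM (-2.33, edgeR adjusted p = 0.000154), while HK1 rose from 4.30 ± 0.111 to 9.79 ± 2.27 CPM (1.19). PFKP, a phosphofructokinase, fell by 0.82 on the log2 scale, and ALDOA rose (5.24 to 12.5 CPM, 1.25). The ALDOA level is low for an abundant glycolytic enzyme, so how its reads were counted is uncertain.

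Among 11 genes of malate and pyruvate handling 1 rose and 6 fell (median -0.43). GOT1, the cytosolic aspartate aminotransferase, went from 97.8 ± 8.19 to 36.0 ± 3.45 CPM (-1.44, edgeR adjusted p = 1.26e-05). Pyruvate carboxylase PC had a log2 fold change of -1.07 and mitochondrial malate dehydrogenase MDH2 had -0.63. The dicarboxylate carrier SLC25A10 fell by 0.71 (edgeR adjusted p = 0.0239), a call lost with library totals (0.0587) and without control replicate 3 (0.0834), FKA replicate 1 (0.0784) or FKA replicate 2 (0.0731). The gene that rose, named after its value was seen, was the citrate carrier SLC25A1 (0.59).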

How the data were processed

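RNA of 6 libraries was compared, 3 control and 3 FKA, grouped by title. The authors deposited whole-number read counts per gene and FPKM values. Each FPKM equals the count divided by column total and 1 length per gene (largest relative deviation 6.9e-07). The sources used here do not give aligner, annotation or strand use. Per the submitters' processing notes the builds are GRCm38 and mm10, which name mouse, while 94.5% of the symbols matched human RefSeq, so gene coordinates are those of the RefSeq promoters alone.

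Counts were fitted with edgeR 4.0.16 in R 4.3.3 (filterByExpr, TMM, quasi-likelihood F test, Benjamini-Hochberg over 13531 genes, threshold 0.05). SE is the log2 fold change divided by the square root of F. The biological coefficient of variation was 15.4%. On simulated counts in 12984 genes, the test recovered 42%, 96%, 100% and 100% of 50 genes each changed 1.5-, 2-, 4- and 8-fold, and called 0.086% of unchanged genes. The simulation gave every gene the same spread, changed only genes above 1 CPM and left most genes unchanged. In the real data 59.8% of tested genes were called and spread differed between genes, so these rates need not hold for them.

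The batch label equals the replicate number and pairs the libraries. Deviations from group means correlated at 0.11, 0.43 and -0.08 within batches 1, 2 and 3. Between batches they ran from -0.36 (control replicate 1 with FKA replicate 2) to 0.27 (control replicate 1 with FKA replicate 3). The last value lies above those within batches 1 and 3. Batch differences used log2(CPM + 0.5).

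The 9 genes and all lists were chosen with earlier results of these data known. Named were the 9 genes, up to 4 called genes of largest change per list (1 is not reported here), the 5 nearest profiles of ME1 and NQO1, and markers that were most abundant or differed 5-fold within a group. The ratios of PGD to PGLS and TKT to TALDO1 and every motif but TGACNNNGC were chosen after seeing the data. The planned comparison of ME1 and ME2 proteins was not made. Alternatives were the batch block, DESeq2 1.42.0, other scalings and filters, limma 3.58.1 on log2(FPKM + 1) and log2(FPKM + 0.1), and leaving out libraries. Without FKA replicates 2 and 3 together, the lone FKA library is assumed to vary like the controls.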

Additional observations from a re-analysis of the deposited data

How the results depend on the processing

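All 9 genes kept the sign of their log2 fold change in all 17 alternatives. With the batch as a replicate block RPE passed (-0.25) and 5 pentose neighbours fell, and the block changed no other call of the 45 genes named by rule. Without FKA replicates 2 and 3 together, 1 FKA library remains and the spread comes from the controls alone: TALDO1 lost its call (0.22), over all genes 2020 rose and 2599 fell, and the numbers higher were 0 of other NADPH sources, 1 of NRF2 regulators, 1 of upper glycolysis and 0 of malate and pyruvate genes, with 0 NRF2 regulators lower. Leaving out 1 library at a time gave 3 to 5 pentose neighbours lower, 1 to 2 other NADPH sources higher, 0 to 2 NRF2 regulators lower and 1 to 2 AHR genes higher. Library totals and limma, run with either pseudocount or after dropping genes under a mean FPKM of 1, each gave 11 listed NADPH users higher. Library totals, a filter of 1 CPM in 3 libraries and limma with either pseudocount each gave 1 NRF2 regulator lower, and limma above that FPKM minimum gave 0. In counts in place of FPKM the ME1 share differed by 58.3 percentage points between groups, against 73.4, because the gene lengths no longer enter. With the batches as pairs its sign-flip p was 0.25, the smallest 3 pairs allow.

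Scaling by library totals moved the median over all genes up by 0.16 (log2), and 60.3% of calls were then higher, against 48.9%. ME1 stood at 3.76 with limma on log2(FPKM + 1), which understates low genes. ME1 and NQO1 had 64 to 341 counts in controls. Their folds are less precise (SE 0.451 and 0.311) than those of PGD and TKT (0.131 and 0.149). ME1 and NQO1 also varied between FKA libraries, where counts were higher (CV 42.4% and 32.6%).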
